A study of Mus musculus with 20 samples.

Results

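ATAC-seq, which marks open chromatin by transposase cutting, was used to map accessible chromatin around 7 genes that code for regulators of pluripotency: Sall4, Sall1, Prdm14, Zfp42, Utf1, Dppa4 and Dppa2. Their loci were taken from the GENCODE M21 annotation of the mouse genome build GRCm38, and every merged peak that overlapped a gene or lay at most 50000 bp from it was counted as a member peak. This gave 113 of the 102373 peaks in the list, at 7 of 21938 annotated protein-coding genes. A peak at most 1000 bp from any annotated transcription start site (TSS) of its gene was called a promoter peak. A peak that overlapped the gene elsewhere was called a gene body peak, and the remaining peaks were called upstream or downstream flank peaks in the direction of transcription.

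The cells were ZHBTc4, a mouse embryonic stem (ES) cell line in which the OCT4 made by the cells themselves comes from a tetracycline-controlled Pou5f1 transgene and is shut off by doxycycline (dox). All cells carried lentiviral constructs with a YPet-MD reporter and either SNAP-MD-OCT4, whose Cyclin B1 degron lowers the protein between mitosis and G1 without removing all of it, or SNAP-MD*-OCT4, whose degron is mutated and inactive. The peak list joins 16 libraries from cells kept 40 h in dox, with 2 constructs, 4 sorted stages (early G1 or EG1, late G1 or LG1, S, and late S/G2) and 2 replicates of each, all grown in serum with LIF and 2i. The series also has 4 unsorted libraries from cells without dox, 2 for each construct, which do not enter the list. As a model the system is limited in that both fusions were driven by the PGK promoter and not by Pou5f1 regulatory DNA, and in that each line was a population sorted for SNAP and YPet signal. According to the paper, this weak promoter was chosen to hold OCT4 below its wildtype level, and G1 was longer in dox than in wildtype ES cells. All 16 libraries of the list, those of MD*-OCT4 included, thus come from cells low in OCT4.

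The list gives the position of each region that was called open in at least 1 of the 16 libraries, and no height, count or value for any single library. Depth per library is therefore unknown here, no peak has a replicate error, and MD-OCT4 could not be compared with MD*-OCT4, nor one cell cycle stage with another, at any of these loci. Peaks of one list are not replicates. The 95% intervals given take each peak as an independent draw, cover counting error alone, and stand in place of any test.

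Mouse ES cells keep their undifferentiated state through a network in which OCT4, SOX2 and NANOG bind enhancers together with KLF family factors, ESRRB and STAT3, the factor activated by LIF. The genes described here act in or next to that network. SALL4 and SALL1 are spalt-like zinc finger transcription factors, and SALL4 is a partner of OCT4 and NANOG in ES cells. PRDM14 is a PR domain zinc finger protein that protects the naive state and is needed for primordial germ cells. Zfp42 codes for REX1, a zinc finger protein related to YY1 that is widely used as a marker of naive cells. UTF1 is a chromatin-associated protein of undifferentiated cells. DPPA4 and DPPA2 are SAP domain proteins that act as a pair and are encoded by neighbouring genes.

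The sequences of the promoters that the RefSeq table (build GRCm38.p6) holds for the members are shown first, because the promoters differed in their content of CG dinucleotides, which are in capitals. The Zfp42 sequence is chr8:43307010-43307259 on the minus strand. The Utf1 sequence is chr7:139943606-139943788 on the plus strand and stops at the first annotated exon base. The Sall1 sequence is chr8:89042863-89043112 on the minus strand, before the one of the RefSeq starts that lies deepest in the Sall1 promoter peak, and GENCODE places it in an intron of Sall1. The promoters of Sall4, Prdm14, Dppa4 and Dppa2 were missing entries.
Zfp42 promoter: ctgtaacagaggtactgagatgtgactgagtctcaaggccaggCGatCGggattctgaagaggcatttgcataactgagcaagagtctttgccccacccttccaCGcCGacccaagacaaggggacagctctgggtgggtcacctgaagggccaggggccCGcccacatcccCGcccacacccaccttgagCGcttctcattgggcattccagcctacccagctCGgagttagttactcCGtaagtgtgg
Utf1 promoter: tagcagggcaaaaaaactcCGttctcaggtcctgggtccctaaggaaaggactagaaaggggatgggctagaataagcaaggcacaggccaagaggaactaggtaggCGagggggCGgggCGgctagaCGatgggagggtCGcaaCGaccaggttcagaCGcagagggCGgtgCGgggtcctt
Sall1 promoter inside the peak: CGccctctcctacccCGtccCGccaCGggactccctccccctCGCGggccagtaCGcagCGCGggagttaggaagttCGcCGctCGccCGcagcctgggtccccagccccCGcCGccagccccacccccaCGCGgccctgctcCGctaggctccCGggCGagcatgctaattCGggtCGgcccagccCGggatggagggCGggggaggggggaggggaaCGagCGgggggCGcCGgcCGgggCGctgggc
The Zfp42 stretch held 9 CG dinucleotides in 250 bases, the Utf1 stretch 10 in 183 bases and the Sall1 stretch 30 in 250 bases. Over the full 300 bases of each RefSeq entry, Zfp42 had 11, more than 58.6% of the 32851 promoters in the table, and Utf1 had 17, more than 68.6%. The 3 Sall1 entries had 18, 27 and 39, which placed them above 70.3%, 84.5% and 95.6% of the table, whose median was 7. The Sall1 stretch printed is from the entry with 39, the richest of the 3. The entry that begins farthest upstream had 18, close to the 17 of Utf1. All 300 bases lay within listed peaks for Zfp42, Utf1 and 2 of the 3 Sall1 entries, and 35 of 300 for the Sall1 entry that begins farthest upstream.

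The Zfp42 promoter is shown again with motif matches in capitals, because it was the only promoter peak of the 13 with a match to the OCT octamer outside soft-masked bases, which are those marked as repeats or low-complexity DNA in the genome sequence. Motifs were searched on both strands as words: OCT (ATGCAAAT), SOX (CCATTGT or CCTTTGT), KLF (CCACACCC, CCCCACCC, CCACGCCC or CCCCGCCC), ESRRB (TCAAGGTCA), STAT (TTCCNGGAA), AP-2 (GCCTNAGGC), PRDM14 (GGTCTCTAA) and YY1/REX1 (AAGATGGC), with N for any base. The composite OCT4::SOX2 motif was searched with up to 2 mismatches and CTCF with up to 1. The octamer shares letters with the composite motif, so that one stretch can match both.
Zfp42 promoter, OCT and KLF matches: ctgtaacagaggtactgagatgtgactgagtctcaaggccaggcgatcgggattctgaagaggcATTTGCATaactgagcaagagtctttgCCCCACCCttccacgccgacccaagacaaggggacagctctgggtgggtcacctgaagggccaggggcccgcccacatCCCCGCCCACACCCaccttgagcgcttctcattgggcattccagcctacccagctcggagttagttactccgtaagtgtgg
The octamer, written here as its reverse complement, lay at chr8:43307188-43307195, 211 bp before the annotated 5′ end of Zfp42. Of the 3 KLF matches, all on the strand of the gene, 2 overlapped each other in the last run of capitals, centred 100 and 106 bp before the 5′ end, and the third was centred 184 bp before it. An OCT match was present in 1.74% and a KLF match in 29.7% of all 300-base RefSeq promoters. Zfp42 held both, Utf1 held 1 KLF match, and the Sall1 entry printed above held 2 KLF matches, both wholly soft-masked. A match is a stretch of letters, and binding was not measured.

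The only member peak with an OCT4::SOX2 match in this strict search lay beyond the 3′ end of Utf1 (below, 150 bases of it, chr7:139945613-139945762, minus strand, with the match in capitals). The match, at chr7:139945681-139945695, was read against the direction of Utf1 and had 2 mismatches. The peak of 418 bp was intergenic, and the match began 568 bp past the gene's end and was centred 1899 bp from its 5′ end.
Utf1 downstream peak: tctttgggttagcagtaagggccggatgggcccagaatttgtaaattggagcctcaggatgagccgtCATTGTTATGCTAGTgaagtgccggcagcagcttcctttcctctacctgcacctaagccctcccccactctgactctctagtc

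Every one of the 7 genes had between 15 and 20 peaks in its window. Prdm14 and Utf1 had 20, Sall4 and Sall1 19, Zfp42 18, Dppa4 16 and Dppa2 15. The median was 19, against 10 over all protein-coding genes, for which the quartiles were 4 and 15. Because longer genes have longer windows, the number per 100 kb of window is the better measure, and its median was 16.1 for the members and 6.97 for all protein-coding genes. Utf1, the shortest gene with 1324 bp, had the highest density with 19.7 peaks per 100 kb, which was above 98.3% of protein-coding genes. Dppa2 had the lowest of the members with 13.0, above 82.0%. Sall4 (15.9), Zfp42 (16.1) and Sall1 (16.2) were close to each other, and without values per library no spread can be set beside any of these counts.

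**Figure D1:**
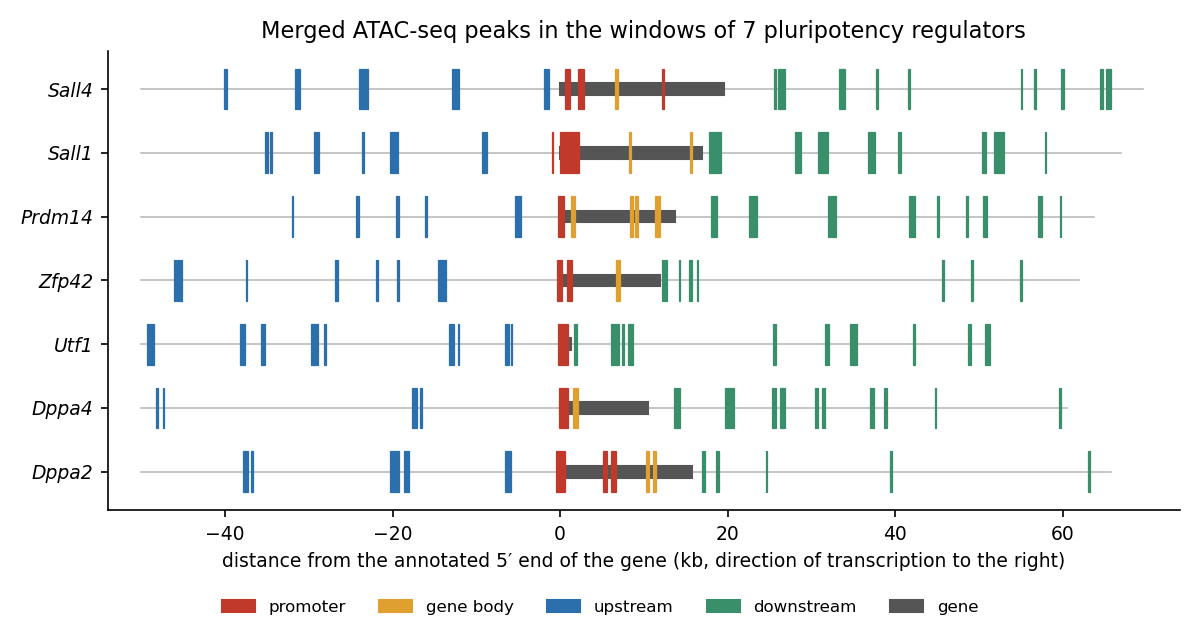
Every merged peak in the 7 windows, drawn to scale by distance from the annotated 5′ end of the gene (kb, direction of transcription to the right); coloured blocks are peaks by class, the dark bar is the gene and the thin line the window of 50 kb on each side. Each gene has a promoter peak at or near its 5′ end, and the 16 peaks of Dppa4 and 15 of Dppa2 are mostly the same regions seen from 2 starts.

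Counted once, 13 of the 113 peaks were promoter peaks, 11 were gene body peaks and 89 were flank peaks. Of all 102373 listed peaks, 21195 lay at most 1000 bp from a TSS of any coding gene, a wider class than the members' promoter peaks. By the position of their centres, 58 member peaks (51.3%) were intergenic, 37 lay in introns, 7 in untranslated exons, 5 in coding exons and 6 in exons of non-coding transcripts. The split by centre was not computed for the whole list, so these counts describe the member windows alone. The flanks were not free of other genes: 9 peaks lay at most 1000 bp from a coding TSS of a neighbour, 4 of Atp9a beside Sall4, 2 of Ncoa2 beside Prdm14, and 1 each of Kndc1, 6430531B16Rik and Adam8 beside Utf1. To which gene a flank peak relates was not measured.

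All 7 genes had a promoter peak, as did 70.4% of protein-coding genes. Since most genes have one, this count says little about the members. Their promoter peaks covered between 806 bp (Prdm14) and 2395 bp (Sall1) of DNA per gene, with a median of 1237 bp. The median over all protein-coding genes was 1005 bp, but genes without a promoter peak enter it as 0 bp and lower it. For the 8 relatives and partners described below the median was 2442 bp, and for the 22 other pluripotency genes 1524 bp, both above that of the members. The median width of the 13 promoter peaks was 646 bp (interval 412 to 1109). The 903 bp of all listed peaks at most 1000 bp from a coding TSS lay within that interval. The 13 include narrow secondary peaks, such as those of 171 bp at Sall1 and 196 bp at Sall4. The promoter peaks nearest the 5′ ends ran from 541 bp (Zfp42) to 2224 bp (Sall1), so the median depends on how peaks are assigned to starts. The 100 other member peaks had a median of 338 bp (318 to 465), against 356 bp for the other listed peaks.

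**Figure D2:**
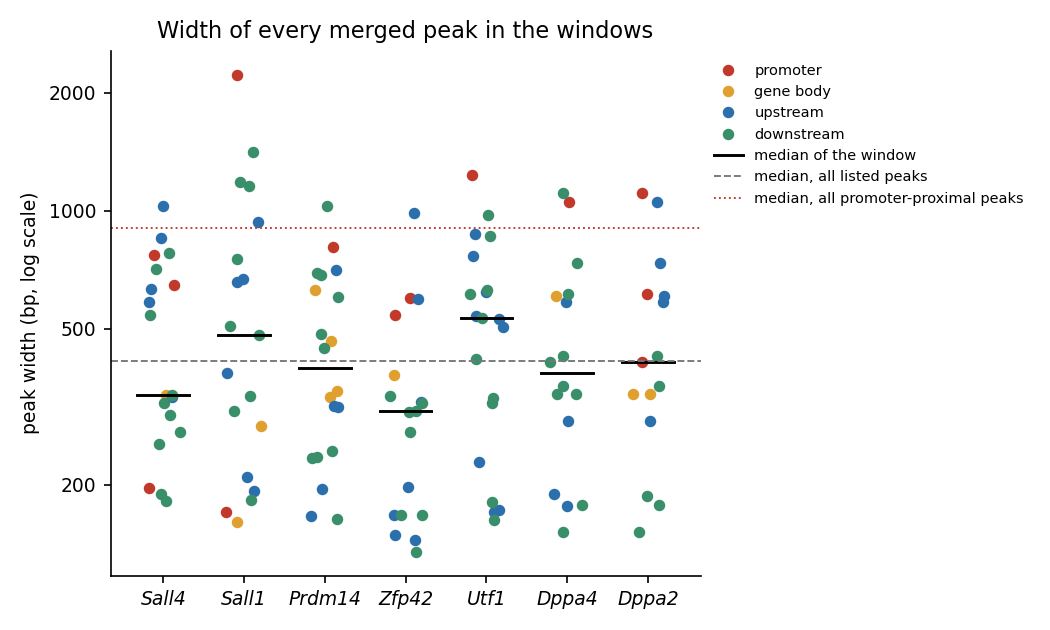
Width of each merged peak (bp, log scale) in the window of each gene; points are peaks coloured by class, black bars are window medians, and the dashed and dotted lines are the medians of all listed peaks (415 bp) and of all promoter-proximal peaks (903 bp). The Sall1 promoter peak of 2224 bp is the widest, and window medians run from 308 bp at Zfp42 to 532 bp at Utf1.

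The promoter peaks split by base composition. A peak was called CG-rich when its GC content was at least 50% and its ratio of observed to expected CG dinucleotides at least 0.6. This held for 3 of 13 promoter peaks (23.1%, interval 8.18 to 50.3), one each at Sall4, Sall1 and Utf1, and for 53.5% of all listed peaks within 1000 bp of a coding TSS. Over all member peaks it held for 7 of 113 (6.19%, interval 3.03 to 12.2) and over the whole list for 13.9%. Zfp42, Prdm14, Dppa4 and Dppa2 had no CG-rich promoter peak.

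**Figure D3:**
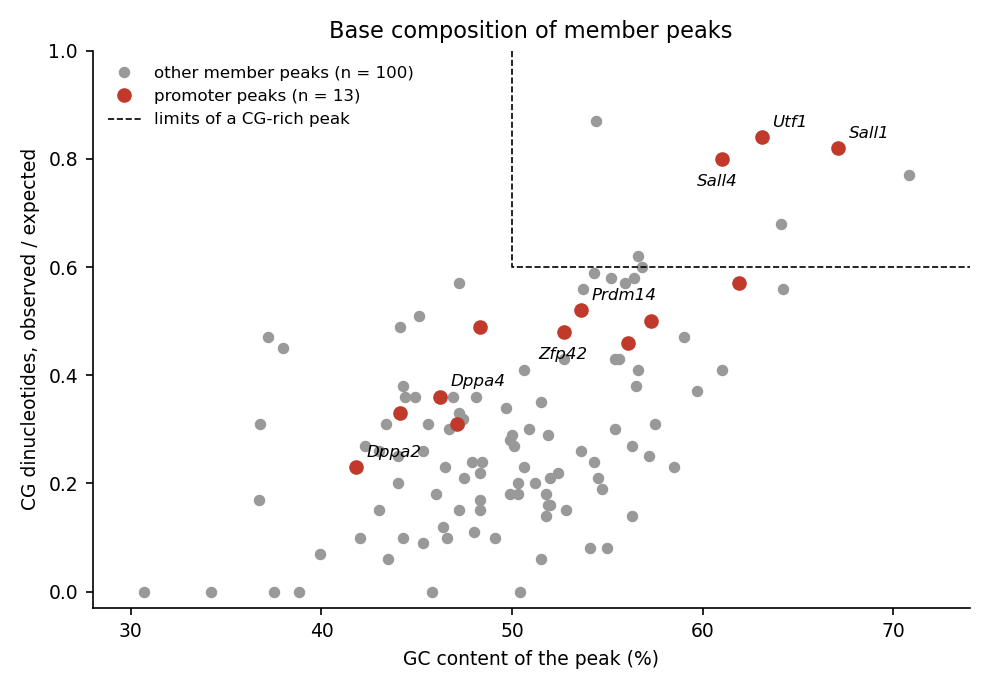
GC content (%) against the observed to expected ratio of CG dinucleotides for each of the 113 member peaks; red points are the 13 promoter peaks, with the one nearest the 5′ end of each gene named, grey points are the 100 others, and dashed lines bound CG-rich peaks. The named peaks of Utf1, Sall1 and Sall4 lie at ratios of 0.80 to 0.84 and that of Dppa2 at 0.23.

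At Sall4 (chr2:168748332-168767943, minus strand, 6 annotated TSS) there were 3 promoter peaks, 1 gene body peak, 5 upstream and 10 downstream peaks. The promoter peak nearest the 5′ end, chr2:168766741-168767386, was 646 bp wide, was centred in an untranslated exon, had a GC content of 61.0% and a CG ratio of 0.80, and held 1 STAT and 1 SOX match. The 2 other promoter peaks were assigned to internal start sites. One of 769 bp was centred 2475 bp into the gene in an intron, and one of 196 bp was centred 12291 bp into the gene in a coding exon. The peak of 769 bp contained an annotated start, and the peak of 196 bp lay 193 bp from one. Sall4 thus had listed peaks at or near annotated internal starts as well as near its 5′ end, and which of the starts is used was not measured. Just outside the promoter class, 1355 bp before the 5′ end, a peak of 584 bp held 2 SOX matches, 1 KLF match and 1 ESRRB match, the last wholly soft-masked. The widest peak that was not a promoter peak, 1027 bp, lay 22921 bp upstream in intergenic DNA and held 3 SOX matches and 1 KLF match, the latter wholly soft-masked.

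The 10 downstream peaks of Sall4 all lay in Atp9a, the neighbouring gene for a membrane flippase. The peak of 780 bp at one of its starts had the highest GC content of all member peaks, 70.8%, and held 5 KLF matches, 3 of them wholly soft-masked, as well as a YY1/REX1 match that overlapped a CTCF match, so that both were read from the same bases.

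At Sall1 (chr8:89027235-89044162, minus strand, 1 annotated TSS) there were 2 promoter, 2 gene body, 6 upstream and 9 downstream peaks. The promoter peak, chr8:89041924-89044147, was the widest of all member peaks at 2224 bp and held 206 CG dinucleotides at a GC content of 67.1%, of which the Sall1 stretch printed above is a part. It ended 15 bp inside the annotated start and reached into intron sequence. The other promoter peak, 828 bp before the start, was 171 bp wide. Sall1 also had the widest peak outside the promoters, 1411 bp, which began 873 bp past the 3′ end of the gene and was CG-rich, with a ratio of 0.62. Another downstream peak, 20252 bp past the gene, had the highest CG ratio of the 113, 0.87, with no annotated coding TSS within 1000 bp. None of the 19 peaks was centred in another annotated gene.

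At Prdm14 (chr1:13113457-13127163, minus strand, 1 annotated TSS) there were 1 promoter, 4 gene body, 5 upstream and 10 downstream peaks, the most in a gene body of any member. The promoter peak, chr1:13126642-13127447, was 806 bp wide and spanned the 5′ end, with a GC content of 53.6%, a CG ratio of 0.52 and 1 KLF match. The gene body peak closest to it, 465 bp wide and centred 1518 bp into the gene in a coding exon, held a CTCF match. The nearest upstream peak lay 4646 bp away and held 1 SOX and 1 AP-2 match. The widest peak outside the promoter, 1030 bp, lay 8804 bp past the 3′ end and held 4 KLF matches, of which 3 overlapped in one run and were wholly soft-masked.

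A downstream peak of Prdm14 at chr1:13094198-13094800, 18657 bp past the gene and intergenic, held 3 YY1/REX1 matches, all on the strand of the gene. It was chosen after its values were seen. At least 3 such matches occurred in 1 of 113 member peaks and in 0.0449% of all listed peaks. The 40 bases around each match are shown on the minus strand with the match in capitals, because the flanks show what the matches have in common. They lie at chr1:13094245-13094284, chr1:13094517-13094556 and chr1:13094624-13094663.
Prdm14 downstream site 1: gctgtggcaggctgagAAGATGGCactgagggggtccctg
Prdm14 downstream site 2: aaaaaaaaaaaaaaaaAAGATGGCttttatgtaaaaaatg
Prdm14 downstream site 3: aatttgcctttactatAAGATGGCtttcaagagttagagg
Sites 2 and 3 were soft-masked, and site 2 follows a run of A. The peak also held 1 STAT match, and 25.2% of its bases were soft-masked.

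At Zfp42 (chr8:43295063-43306980, minus strand, 3 annotated TSS) there were 2 promoter, 1 gene body, 7 upstream and 8 downstream peaks. The promoter peak that spans the 5′ end, chr8:43306762-43307302, was 541 bp wide with a GC content of 52.7% and a CG ratio of 0.48, and it holds the octamer and KLF matches printed above. The second promoter peak, 598 bp, was centred 1136 bp into the gene in an intron and held none of the 10 motifs. Upstream, the next peak was 13575 bp from the gene. It was also the widest outside the promoters, 986 bp, and held 2 KLF matches and 1 STAT match. Downstream, 5 peaks lay within 4392 bp of the 3′ end, and then 29081 bp passed without a peak.

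Long stretches without listed peaks lay on both sides of the Zfp42 window. The closest peak outside it was 103559 bp from the gene, whereas for the other 6 genes this distance was between 51148 and 81890 bp. Zfp42 also had the lowest median width, 308 bp, and its narrowest peak of 135 bp was as narrow as any in the list. Of its 8 downstream peaks 3 held a CTCF match, shown with the match in capitals because their strands differ. The sites are chr8:43251827-43251866 on the plus strand, and chr8:43257822-43257861 and chr8:43292738-43292777 on the minus strand.
Zfp42 downstream CTCF site 1: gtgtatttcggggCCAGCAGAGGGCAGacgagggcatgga
Zfp42 downstream CTCF site 2: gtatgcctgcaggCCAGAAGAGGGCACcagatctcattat
Zfp42 downstream CTCF site 3: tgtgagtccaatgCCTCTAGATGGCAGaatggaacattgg
The 2 sites farther from the gene, one on each strand, were soft-masked, and the site 2298 bp past the 3′ end was not. CTCF matches occurred in 13.0% of all listed peaks.

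At Utf1 (chr7:139943789-139945112, plus strand, 1 annotated TSS) there were 1 promoter, 9 upstream and 10 downstream peaks and none confined to the gene body. The promoter peak, chr7:139943516-139944752, was 1237 bp wide and covered most of this short gene, with a GC content of 63.1% and the highest CG ratio of any promoter peak, 0.84. It held 1 KLF match, which is in the promoter entry described above. The first peak past the gene, 333 bp from its 3′ end, was the one with the OCT4::SOX2 match. All 9 upstream peaks were centred in Kndc1, the neighbouring gene. The widest peak outside the promoter, 974 bp, lay 4805 bp downstream in an exon of the non-coding transcript Gm16201 and held 3 KLF matches, 2 of them wholly soft-masked. Utf1 had 4 of the 11 CTCF matches among member peaks. The nearer of its 2 peaks with a SOX match lay 6801 bp past the gene.

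Dppa4 (chr16:48283733-48294237) and Dppa2 (chr16:48303908-48319723) lie on the plus strand of chromosome 16 with 9670 bp between them, and their windows overlap. Of the 17 peaks in either window 14 were in both, which is 87.5% of the peaks of Dppa4 and 93.3% of those of Dppa2. Their 2 counts are therefore not independent, and each shared peak entered the total of 113 once. Dppa4 had 1 promoter peak, chr16:48283635-48284685, 1051 bp wide, with a GC content of 46.2%, a CG ratio of 0.36 and 1 SOX match. Dppa2 had 3. The one at its 5′ end, chr16:48303379-48304487, was 1109 bp wide with the lowest GC content of the 13 promoter peaks, 41.8%, and the lowest CG ratio, 0.23. It held 2 SOX matches and an OCT octamer centred 490 bp into the gene, whose 8 bases were all soft-masked. The other 2, of 412 and 614 bp, lay near a second start inside the gene and held 1 SOX match each, the narrower one also a KLF match.

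Each of these paralogs thus had a promoter peak over 1000 bp wide that was poor in CG, and each promoter peak was the widest peak of the other's window apart from its own promoter. Upstream of Dppa4 the nearest peak was 16478 bp away, the longest such distance of the 7 genes. Between Dppa4 and Dppa2 there was 1 peak apart from the Dppa2 promoter peak. It was 736 bp wide, chr16:48297371-48298106, and lay 3134 bp past Dppa4 and 5802 bp before Dppa2.

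This intergenic peak held matches to SOX, KLF, ESRRB and STAT, 1 of each, and was the only member peak with 4 of the 10 motifs. At least 4 occurred in 0.426% of all listed peaks. All 8 bases of its KLF match were soft-masked and no base of the other 3 matches was, so that the count of 4 rests on a masked match. The peak was chosen after its values were seen. The 124 bases chr16:48297846-48297969 with the ESRRB match (on the other strand), the KLF match and the SOX match in capitals, and the 49 bases chr16:48297583-48297631 with the STAT match, are given on the plus strand to show how the matches are spaced.
Dppa4-Dppa2 intergenic peak: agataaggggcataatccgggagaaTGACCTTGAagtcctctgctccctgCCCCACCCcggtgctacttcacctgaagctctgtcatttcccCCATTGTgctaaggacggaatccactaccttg
Dppa4-Dppa2 intergenic peak, STAT: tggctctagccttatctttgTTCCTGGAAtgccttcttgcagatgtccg
The ESRRB, KLF and SOX matches followed one another in this order, and the STAT match lay on the side toward Dppa4.

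Across the 113 peaks, 73 (64.6%, interval 55.4 to 72.8) held a match to at least 1 of the 10 motifs, against 59.6% of all listed peaks. The other 40 held none, 47 held 1 kind, 20 held 2, 5 held 3 and 1 held 4. SOX matches were in 31 peaks (27.4%, list 21.3%) and KLF matches in 40 (35.4%, list 32.5%), and both occurred in the windows of all 7 genes. Of the 69 KLF matches 30 were wholly soft-masked, and of the 38 SOX matches 1 was. SOX was most frequent at the Dppa pair, with 9 of the 16 peaks of Dppa4 and the same number of the 15 of Dppa2. KLF was most frequent at Utf1, with 10 of 20 peaks, where SOX was in 2.

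The counts for ESRRB, STAT, OCT and the composite OCT4::SOX2 motif were small. ESRRB matches were in 6 peaks (5.31%, interval 2.46 to 11.1), against 2.82% of the list, none of them a promoter peak. STAT matches were in 7 peaks (6.19%, interval 3.03 to 12.2), against 2.17%. This was the only one of the 10 motifs for which the share in the list fell outside the interval of the members, and the interval does not allow for the shared surroundings of peaks in one window. Nor do the 10 intervals, read side by side, allow for their number. Within the central 200 bp of the peaks, 1 member peak held a STAT match, and 0.860% of the list did. The 7 STAT peaks were spread over the windows of every gene except Utf1, with 2 at Sall1 and 2 in the shared Dppa windows. OCT matches were in 2 peaks (1.77%, list 2.56%), neither within the central 200 bp, and the OCT4::SOX2 match in 1 (0.885%, interval 0.156 to 4.84, list 0.395%).

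**Figure D4:**
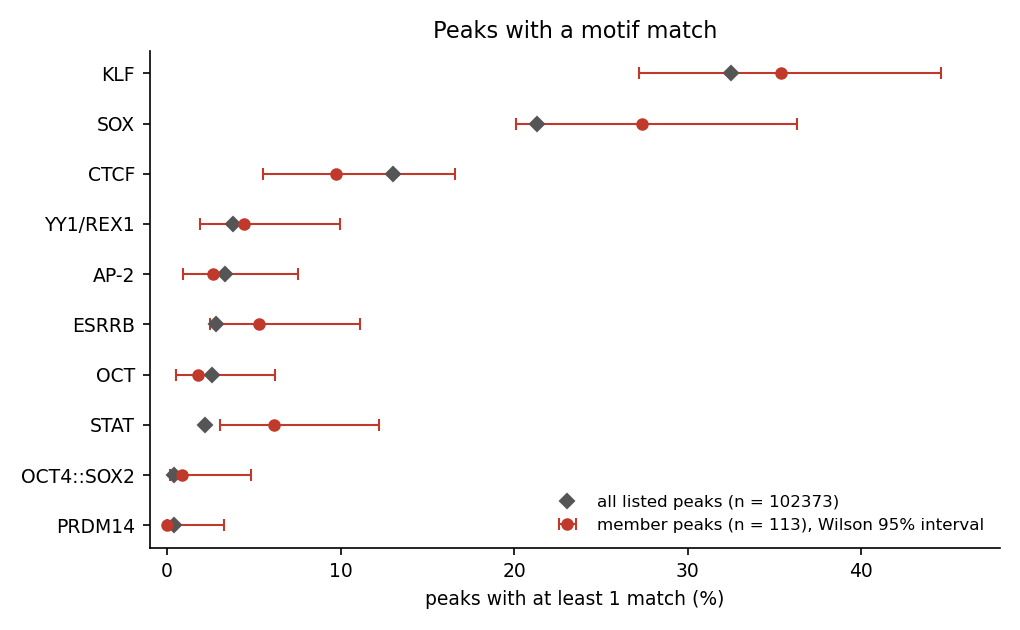
Share of peaks (%) with at least 1 match to each of the 10 motifs; circles are the 113 member peaks with 95% Wilson intervals and diamonds are all 102373 listed peaks. The diamond lies within the interval for 9 motifs and below it for STAT (2.17% against 6.19%).

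Among the members' own products, REX1 and PRDM14 have words in the search. The YY1/REX1 word was in 5 peaks (4.42%, list 3.79%), 1 in the window of each of Sall4, Sall1, Prdm14, Zfp42 and Utf1, and in 1 peak within the central 200 bp (list 1.63%). The PRDM14 word was in 0 of 113 peaks, which allows a share of up to 3.29% by the Wilson interval, against 0.383% of the list. AP-2 was in 3 peaks (2.65%, list 3.31%), at Prdm14 and Utf1. CTCF was in 11 (9.73%, interval 5.52 to 16.6, list 13.0%), all outside the promoter peaks, and in 7 within the central 200 bp (list 8.02%).

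The ESRRB sites show how far such matches sit in repeats. The 5 sites outside the Dppa windows are given with 15 bases on each side, read on the strand of the match, which is in capitals. They lie at chr2:168726340-168726378 (plus strand, an Atp9a intron), chr2:168769813-168769851 (minus, intergenic), chr8:89073538-89073576 (plus, intergenic), chr1:13115358-13115396 (plus, a Prdm14 intron) and chr1:13146665-13146703 (minus, an exon of an Ncoa2 transcript).
Sall4 downstream: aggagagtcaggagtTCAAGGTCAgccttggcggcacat
Sall4 upstream: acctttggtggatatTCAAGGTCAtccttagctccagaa
Sall1 upstream: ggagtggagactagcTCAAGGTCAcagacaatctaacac
Prdm14 gene body: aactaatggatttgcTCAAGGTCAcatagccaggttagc
Prdm14 upstream: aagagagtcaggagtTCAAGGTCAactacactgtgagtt
The Sall4 downstream and Prdm14 upstream sites shared a run of 22 bases including the match, although they are on different chromosomes. No other pair of the 5 shared more than 13. Of the 6 sites 3 (50.0%) were wholly soft-masked, against 42.6% of the 2970 ESRRB matches in all listed peaks. Over whole peaks, the members had a median of 13.6% soft-masked bases (10.5 to 18.5) and the list 10.5%.

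Genes related to the members were read in the same way. The list of relatives and partners was Sall2, Sall3, Prdm1, Cbfa2t2, Yy1, Lin28a, Trim28 and Tet1. All 8 had a promoter peak, and the median was 17 peaks per window, from 7 at Sall3 to 27 at Cbfa2t2. Sall3, a spalt-like gene like Sall4 and Sall1, had 5.81 peaks per 100 kb against 15.9 and 16.2 for those, and Sall2 had 11.9. Prdm1, which codes for the PR domain repressor BLIMP1, had 8.89 against 17.6 for Prdm14. Cbfa2t2, which codes for a partner protein of PRDM14, had 13.3. Trim28 (15.2) and Lin28a (14.7) lay above the members Dppa4 (14.5) and Dppa2 (13.0), while Tet1 had 11.7 and Yy1 9.44. Among 22 other pluripotency genes the median was 18 peaks, from 3 at Nr0b1 to 29 at Esrrb, and 21 had a promoter peak. Nanog was the exception with no promoter peak among its 22 peaks. The absence of a TSS from the list does not show closed chromatin there.

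**Figure D5:**
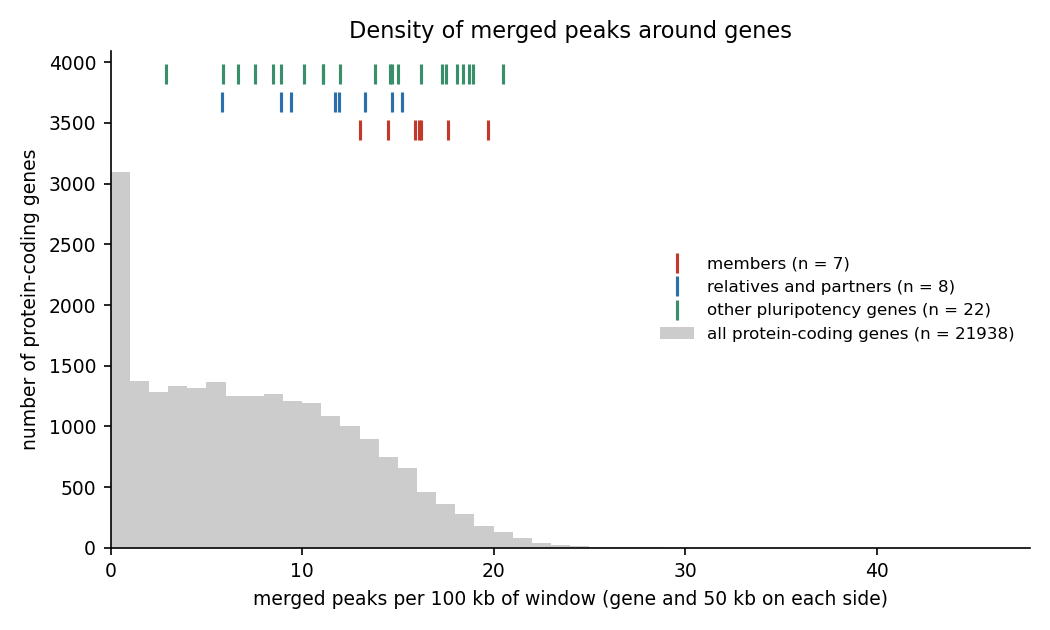
Merged peaks per 100 kb of window for all 21938 protein-coding genes (grey bars, number of genes per bin of 1) and for the members, their relatives and partners, and other pluripotency genes (1 tick per gene; the height of the ticks has no meaning). The 7 members lie between 13.0 and 19.7, the 8 relatives between 5.81 and 15.2 and the 22 other genes between 2.88 and 20.5.

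The medians per 100 kb were 16.1 for the members, 11.8 for the relatives and partners and 14.2 for the other pluripotency genes, against 6.97 for all protein-coding genes. The 3 ranges overlapped. As to the limit of 50000 bp, the member peak nearest to it lay 49372 bp from Utf1 with a width of 629 bp, and the nearest peak left out lay 51148 bp from Prdm14 with a width of 155 bp.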

How the data were processed

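ATAC-seq libraries came from 20 samples in 10 groups of 2 replicates, of which the 16 dox-treated ones enter the list. Per the methods and the submitters' processing notes, the authors aligned reads to GRCm38 with STAR 2.6.1c, called peaks with MACS2 2.1.1.20160309 and merged the peaks of these libraries with bedtools. The deposited file holds 3 columns of coordinates (chromosome, start and end), with no score, counts or depth, and 0 columns were left unused. Whether input and blacklisted regions had been removed could not be tested here. The methods also describe the removal of peaks above 5000 bp. The list still holds 7 of these, the widest of 38218 bp, and is thus not the set left by that step, which bears on every share given for the list. None of the 7 is a member peak.

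Windows of 50000 bp, promoters (1000 bp) and an overlap of at least 1 bp used GENCODE M21, and sequence came from the RefSeq copy of GRCm38. Soft-masking is that of the genome sequence. CG-rich limits were 50% GC and a ratio of 0.6. Shares have Wilson intervals and medians have order-statistic intervals. Functions were tested on simulated data. Python 3.11.15, pandas 2.3.3, numpy 2.4.6, scipy 1.17.1, pysam and matplotlib 3.10.9 were used.

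Named in the text are the members with all promoter peaks, the widest other peak of each, every peak with an OCT4::SOX2 match, genes with a coding TSS within 1000 bp of a member peak, and the 2 gene lists. Other peaks were named after their values were seen. The members, lists and motifs were chosen with earlier results of these data known. The planned comparison of MD-OCT4 with MD*-OCT4 needs values per library and was not run. Alternatives changed the window, the promoter distance, the peak width, joining, the central 200 bp, mismatches and CG limits, and left out each gene.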

Additional observations from a re-analysis of the deposited data

How the results depend on the processing

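Of 50 alternatives to the main counts and medians 44 left the value within 1.5 times the main count or within the interval of the median. A window of 25000 bp gave 73 member peaks in place of 113, of which 60 were distal (not promoter peaks) in place of 100. Peaks of at least 300 bp left 66 distal peaks. The number with an OCT4::SOX2 match was 0 with up to 1 mismatch (list 0.0352%) and 3 with up to 3 mismatches (list 3.06%), against 1 with 2. Those with 3 mismatches included the Zfp42 promoter peak that spans the 5′ end. With limits of 55% GC and a ratio of 0.75, 4 peaks were CG-rich in place of 7, and the share of the list under these limits was not computed. Each of these alternatives admits less DNA or stricter or looser matches by construction. All 7 genes kept a promoter peak at 500 and 2000 bp, at the 5′ end alone and among peaks of at least 300 bp. The setting of 2000 bp could give no other result by construction, although it counts among the 44. Of 27 alternatives for single motifs 10 moved the count by over 1.5 times. These are raw counts, which also change with the amount of DNA searched, so a moved count need not be a moved share. In the central 200 bp of the peaks, STAT was in 1 member peak (0.860% of the list), ESRRB in 2 (1.35%), SOX in 16 (10.8%), KLF in 23 (16.9%), CTCF in 7 (8.02%), YY1/REX1 in 1 (1.63%) and OCT in 0 (1.13%), so the STAT matches lay mostly outside peak centres. With a window of 25000 bp CTCF was in 7 (list 13.0%) and YY1/REX1 in 3 (list 3.79%) of the 73 member peaks. With 100000 bp CTCF was in 17 of 156. No paired analysis was possible because no value per replicate is given, and leaving out a replicate could not be done for the same reason. How many of the 16 libraries hold a given peak is not in the data used here, and no count of peaks measures how open a region was.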
